A study of Mus musculus with 20 samples.

Results

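Dnajb1, Dnajb4 and Dnajb5 encode closely related J-domain proteins of the DNAJB class. Their transcripts were followed during heat shock in mouse fibroblasts that carry heat shock factor 1 (HSF1 +/+, wild-type) and in fibroblasts that lack it (HSF1 -/-, HSF1-null). The 3 genes were taken by name from probes that the platform table assigns to a single gene, out of 10843 genes listed in that way, and all 3 were among the 10625 genes tested. Each of 20 spotted 2-colour arrays set 1 fibroblast sample (Cy5) against a common pool of mRNA from heated and unheated mouse fibroblasts (Cy3). For each genotype, 3 arrays came from unheated cells (0 h) and single arrays followed after 0.5, 1, 2, 3, 4, 6 and 8 h. Arrays of 0.5, 1 and 2 h form the early window (n = 3 in each genotype), and those of 3, 4, 6 and 8 h the late window (n = 4). A window thus mixes times, and its spread holds both replicate error and any trend. No agent besides heat is named in the labels. The sources used here do not state the temperature, any recovery before harvest, how many clones stand behind each line, or whether the unheated arrays are separate cultures. The p-values therefore measure the spread between these arrays, and genotype cannot be told apart from other differences between the cell lines.

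J-domain proteins are the partners that make HSP70 chaperones work. HSP70 holds unfolded stretches of other proteins and lets them go in a cycle driven by ATP, and a J-domain protein delivers the substrate and triggers the ATP hydrolysis that closes HSP70 on it. DNAJB1, long known as HSP40, is the classical heat-inducible member and works with HSP70 and HSP110 to take protein aggregates apart. DNAJB4 and DNAJB5 share its architecture, a J domain at the amino end followed by a glycine- and phenylalanine-rich stretch and the substrate-binding domains. In heart muscle cells DNAJB5 is known as a partner of a histone deacetylase under redox control. HSF1 switches on many chaperone genes by binding heat shock elements, which are repeats of the bases GAA in alternating orientation.

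The promoter windows of the 3 genes are shown because HSF1 acts on promoters and the 3 transcripts were read with and without it. They are RefSeq sequences of mouse build GRCm38.p6, the 250 bases before an annotated start site, with a matched heat shock element in capitals. RefSeq lists 2 start sites for Dnajb1, 2 for Dnajb4 and 3 for Dnajb5. The windows printed are chr8:83607925-83608174 (plus strand) for Dnajb1, chr3:152193846-152194095 (minus strand) for Dnajb4 and chr4:42949617-42949866 (plus strand) for Dnajb5. They are those of lowest genome position for each gene. For Dnajb1 and Dnajb5 this is the most upstream start site. For Dnajb4, on the minus strand, it is the downstream one, and the other start site lies upstream at chr3:152210083.
Dnajb1: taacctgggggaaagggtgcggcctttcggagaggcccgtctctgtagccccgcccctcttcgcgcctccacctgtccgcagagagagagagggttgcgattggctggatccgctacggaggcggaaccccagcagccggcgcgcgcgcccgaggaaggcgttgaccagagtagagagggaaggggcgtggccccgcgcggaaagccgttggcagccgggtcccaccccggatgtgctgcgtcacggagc
Dnajb4: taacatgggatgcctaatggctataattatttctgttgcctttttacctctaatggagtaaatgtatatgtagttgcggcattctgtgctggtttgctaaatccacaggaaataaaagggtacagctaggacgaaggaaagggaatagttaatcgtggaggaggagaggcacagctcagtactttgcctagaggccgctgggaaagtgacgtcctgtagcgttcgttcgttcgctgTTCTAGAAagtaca
Dnajb5: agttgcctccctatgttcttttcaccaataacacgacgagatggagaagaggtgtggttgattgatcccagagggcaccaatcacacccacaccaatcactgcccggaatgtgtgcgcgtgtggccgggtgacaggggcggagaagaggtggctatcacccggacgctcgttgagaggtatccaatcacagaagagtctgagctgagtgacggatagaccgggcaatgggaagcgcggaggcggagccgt
Each 300-base window, which reaches 50 bases past the start site, was searched on both strands for 2 inverted units (GAANNTTC or TTCNNGAA) and for 3 inverted units (GAANNTTC followed by any 2 bases and GAA). A match to 3 units also contains a match to each of the 2-unit forms. The single match in the 7 windows was TTCTAGAA in Dnajb4, at bases -14 to -7 from the start site whose window is printed, the downstream one. One of the 2-unit forms was present in 15.1% of 32851 promoter windows of this length, and the 3-unit form in 0.603%. A match describes the letters only, and the search took exact units. The windows without a match were those of Dnajb1 and Dnajb5 and the other Dnajb4 window. They say nothing of imperfect or more distant elements.

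Across the table the arrays held 39037 to 42220 values each, and the number of arrays limits the precision. Values are log ratios of sample over pool, treated as log2, centred on the median of each array. For display each gene is set relative to its mean on the 3 wild-type 0 h arrays. A ratio to a fibroblast pool gives no level, so genes cannot be ranked by abundance and the presence of a cell type cannot be read from it. The targeted gene, Hsf1, had 0 probes listed with a single gene. The stress-inducible HSP70 gene Hspa1a stood 4.55 to 6.40 above its own 0 h mean on the wild-type arrays from 1 h on and 0.58 above it at 0.5 h, and at -0.24 to 0.66 on the 7 heated null arrays. Of 20 fibroblast markers, 16 were measured. Their mean lay at -0.06 to 0.04 on the wild-type 0 h arrays and at 0.16 to 0.29 on the null ones, with 4 higher and 2 lower in null cells, beside 3.04% and 3.6% of all genes. It lay at -0.44 to -0.03 on the late wild-type arrays and at -0.25 to 0.03 on the late null arrays. Of 8 measured macrophage markers 2 were lower in unheated null cells, and none of the 6 epithelial, 4 endothelial, 5 muscle and 4 neural markers passed at 0 h. The ranges of other list means also shifted between windows, which was not tested. In null cells the epithelial mean lay at -0.02 to 0.12 at 0 h and 0.17 to 0.36 late, and the neural mean at -0.14 to 0.06 and 0.19 to 0.64. The macrophage mean lay at -0.43 to 0.06 in null cells at 0 h and -0.46 to -0.35 late, and in wild-type cells at -0.08 to 0.12 at 0 h and -0.32 to -0.13 early. The muscle mean lay at -0.07 to 0.11 in wild-type cells at 0 h and 0.07 to 0.30 late, and the endothelial ranges at 0 h and in each window overlapped in both genotypes. The part of these shifts in the results for the DNAJB genes was not tested.

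Dnajb1 was higher in heated than in unheated wild-type cells on every array, while heated and unheated null arrays overlapped. Relative to the wild-type 0 h mean, the 0 h arrays lay at 0.06, -0.22 and 0.16. The wild-type early arrays were at 1.16 (0.5 h), 2.06 (1 h) and 2.14 (2 h), and the late ones at 2.50 (3 h), 1.64 (4 h), 2.37 (6 h) and 1.95 (8 h). All 7 heated wild-type arrays lay above all 3 unheated ones. For the early arrays alone 6.24% of genes had this pattern, and for the late arrays alone 9.42%. The share for all 7 together was not counted. In null cells the 0 h arrays were at -0.39, -0.53 and -0.10. The heated null arrays were at 0.04 (0.5 h), -0.06 (1 h), -0.53 (2 h), -0.46 (3 h), -0.35 (4 h), -0.08 (6 h) and -0.45 (8 h). The heated and unheated null arrays overlapped in both windows. The highest null array lay below the lowest heated wild-type array, a pattern whose share over all genes was not counted.

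The late rise of Dnajb1 in wild-type cells was 2.11 ± 0.25 (SE, 4.33-fold, n = 4 against 3, limma adjusted p = 0.00121). It was the gene of smallest p in that comparison, in which 3.6% of the 10625 genes tested rose past an adjusted p of 0.05. The early difference was 1.78 ± 0.26 (3.44-fold, n = 3 against 3, limma adjusted p = 0.0302), and 0.00941% of genes, Dnajb1 alone, rose in it. Early and late comparisons share the 0 h arrays. The early call was lost without the wild-type array of 1 h (adjusted p = 0.0642) or 2 h (0.119), without wild-type 0 h replicate 1 (0.106) or 2 (0.0822), and without null 0 h replicate 1 (0.059), the null 1 h array (0.0509) or the null 3 h array (0.0526). Between the windows the wild-type level differed by 0.33 ± 0.25 (limma adjusted p = 0.584, 95% interval -0.19 to 0.85), in a comparison where 0.0188% of genes passed. Ordered by the difference to the own 0 h mean on each wild-type array, Dnajb1 was gene 314 of 10350 at 0.5 h, 31 of 10602 at 1 h and 32 of 10605 at 2 h. It was between gene 49 of 10518 at 3 h and gene 171 of 10499 at 4 h in the late window.

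In null cells the Dnajb1 differences to 0 h were 0.15 ± 0.26 early (limma adjusted p = 0.931, 95% interval -0.40 to 0.71) and 0.00 ± 0.25 late (adjusted p = 0.997, 95% interval -0.51 to 0.52). In the early null comparison limma called 0 of 10625 genes, with 793 at an unadjusted p under 0.05. In the late one 3.86% of genes rose. The response of wild-type cells exceeded that of null cells by 2.11 ± 0.35 in the late window (limma adjusted p = 0.0402). Only 0.0753% of genes passed in this direction, and Dnajb1 ranked 3 by p. The call was lost without any 1 of 12 arrays, listed with the other settings in the closing section, while the difference stayed between 1.98 and 2.43. In the early window the excess was 1.63 ± 0.37 (limma adjusted p = 0.54), in a comparison where limma called 0 genes and 889 had an unadjusted p under 0.05. Dnajb1 passed there when both 0.5 h arrays were left out (2.06 ± 0.35, adjusted p = 0.048).

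**Figure D1:**
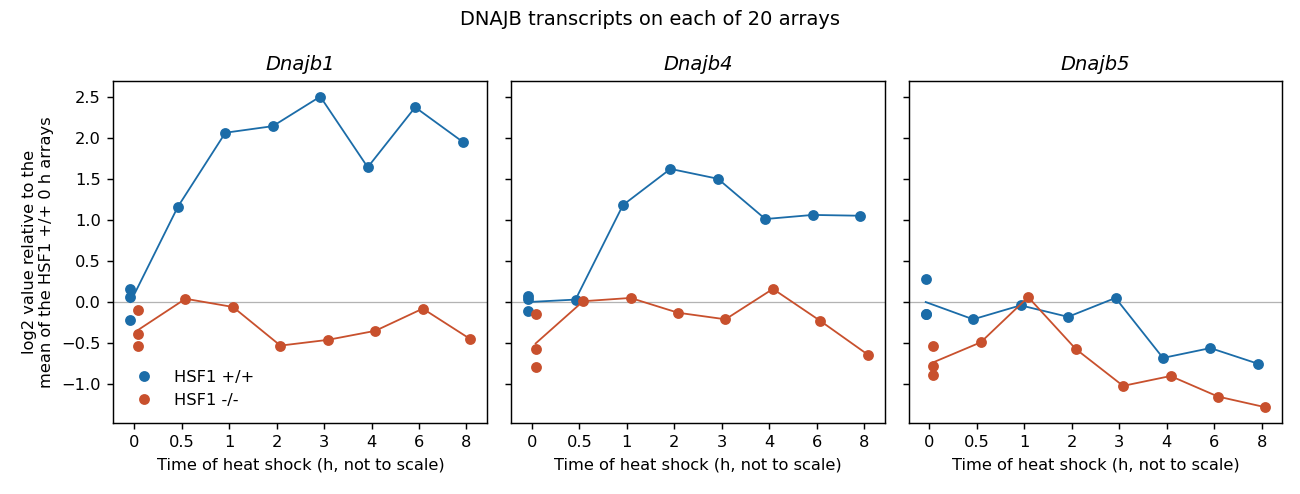
Value of each gene on every array (log2, relative to the mean of the 3 wild-type 0 h arrays) against time of heat shock (h, evenly spaced and not to scale), 1 point per array, wild-type in blue and HSF1-null in red, with lines through the means per time. Wild-type lies above null for Dnajb1 at every heated time. The Dnajb4 null arrays lie below the wild-type ones at 0 h too (nearest -0.15 and -0.11), as for 11.9% of genes. That 0 h difference did not pass. The Dnajb4 curves meet at 0.5 h (0.03 and 0.01, means of probes that differ) and are 0.85 to 1.76 apart from 1 h on. Both Dnajb5 curves end below their starting levels.

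Dnajb4 rose in the late window in wild-type cells. Its wild-type 0 h arrays lay at -0.11, 0.07 and 0.04, and the 0.5 h array at 0.03 was within that spread. It stood at 1.18 at 1 h, 1.62 at 2 h, 1.50 at 3 h, 1.01 at 4 h, 1.06 at 6 h and 1.05 at 8 h. The late wild-type arrays thus all lay above the 0 h arrays, as for 9.42% of genes, and the early ones did not. In null cells the 0 h arrays were at -0.15, -0.79 and -0.57. The heated null arrays were at 0.01, 0.05 and -0.13 in the early window and at -0.21, 0.16, -0.23 and -0.64 from 3 to 8 h. All 3 early null arrays lay above the null 0 h arrays, a pattern that 4.56% of genes had, and the late ones overlapped with them.

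The late rise of Dnajb4 in wild-type cells was 1.16 ± 0.28 (2.23-fold, n = 4 against 3, limma adjusted p = 0.0215), lost without wild-type 0 h replicate 1 (adjusted p = 0.0577). The early difference of 0.94 ± 0.30 did not pass (limma adjusted p = 0.28). Without the wild-type 0.5 h array it was 1.40 ± 0.24 and passed (adjusted p = 0.0273). In null cells the differences were 0.48 ± 0.30 early (limma adjusted p = 0.743) and 0.28 ± 0.28 late (adjusted p = 0.6). The responses of the genotypes differed by 0.46 ± 0.43 early (limma adjusted p = 0.793) and by 0.88 ± 0.40 late (adjusted p = 0.553, 95% interval 0.04 to 1.72), which is no call at this number of arrays and no evidence of equal responses. Between the windows Dnajb4 differed by 0.21 ± 0.28 in wild-type cells and by -0.21 ± 0.28 in null cells (limma adjusted p = 0.795 and 0.716). In the order of differences to the own 0 h mean on each wild-type array it was gene 4481 at 0.5 h, 193 at 1 h, 102 at 2 h and 222 at 3 h, and between 457 and 585 from 4 to 8 h.

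Dnajb5 was not called higher in any window of either genotype. All values of Dnajb5 come from 1 probe, so they could not be compared with those of another probe. Its wild-type 0 h arrays lay at -0.14, -0.14 and 0.28, followed by -0.21, -0.04 and -0.18 in the early window and 0.05 (3 h), -0.68 (4 h), -0.56 (6 h) and -0.75 (8 h) later. The null 0 h arrays were at -0.53, -0.78 and -0.89. They were followed by -0.49 (0.5 h), 0.06 (1 h), -0.57 (2 h), -1.02 (3 h), -0.90 (4 h), -1.15 (6 h) and -1.28 (8 h). The 4 late null arrays all lay below the null 0 h arrays, as they did for 16.3% of genes, and the 3 null 0 h arrays lay below the wild-type ones, as for 11.9% of genes.

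Dnajb5 was lower in unheated null cells by a log2 difference of -0.73 ± 0.21 (1.66-fold, n = 3 against 3, limma adjusted p = 0.0493), in a comparison where 3.6% of genes were lower. This call lay at the threshold. It was lost without any 1 of 16 arrays (adjusted p up to 0.175) and kept only without the null 1 h or 2 h array or the wild-type 3 h or 8 h array. The unheated genotypes did not differ past the threshold in Dnajb1 (-0.34 ± 0.26, limma adjusted p = 0.515) or Dnajb4 (-0.51 ± 0.30, adjusted p = 0.372). For Dnajb4 all 3 null arrays lay below the wild-type ones, as for 11.9% of genes. The heat shock differences of Dnajb5 to 0 h were -0.14 ± 0.21 early and -0.49 ± 0.20 late in wild-type cells (limma adjusted p = 0.846 and 0.148). In null cells they were 0.40 ± 0.21 and -0.36 ± 0.20 (adjusted p = 0.711 and 0.28). The late wild-type difference passed without the 3 h array (-0.66 ± 0.18, limma adjusted p = 0.0374).

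From the early to the late window Dnajb5 fell in null cells by 0.76 ± 0.20 on the log2 scale (1.69-fold, n = 4 against 3, limma adjusted p = 0.039), where 2.9% of genes fell. The null 1 h array, at 0.06, was the highest of the 7 heated null arrays, and without it the fall was no longer called (-0.56 ± 0.21, adjusted p = 0.169). The call was also lost without the null array of 0.5 h (adjusted p = 0.0757), 3 h (0.051), 6 h (0.101) or 8 h (0.122), or the wild-type array of 6 h (0.0501). In wild-type cells the same difference was -0.34 ± 0.20 (limma adjusted p = 0.463). The responses of the genotypes differed in Dnajb5 by -0.54 ± 0.30 early (limma adjusted p = 0.635) and by -0.13 ± 0.28 late (adjusted p = 0.935, 95% interval -0.72 to 0.47).

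**Figure D2:**
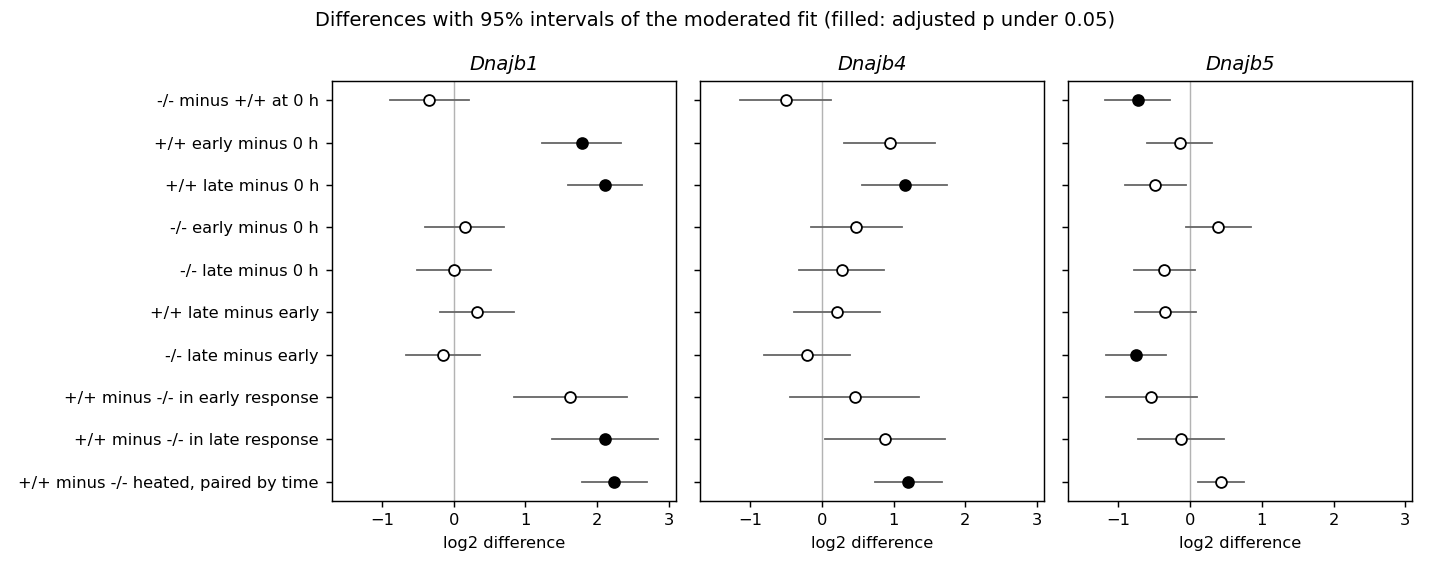
Each of the 10 differences tested per gene (log2, x axis), with its 95% interval from the moderated fit as a line and filled circles where the adjusted p was under 0.05. Dnajb1 passes in both wild-type windows, in the late response difference and in the time-matched comparison, Dnajb4 in the late wild-type window and the time-matched comparison, and Dnajb5 in the 0 h comparison and the late minus early comparison of null cells.

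Heated cells of both genotypes can be compared directly at matched times, which includes any difference present at 0 h. Wild-type minus null differences of Dnajb1 were 1.11 at 0.5 h, 2.12 at 1 h, 2.67 at 2 h, 2.95 at 3 h, 1.98 at 4 h, 2.46 at 6 h and 2.40 at 8 h. Wild-type lay above null in 7 of 7 pairs, as it did for 6.55% of 9828 genes with all pairs. The mean difference was 2.24 ± 0.20 (4.73-fold, limma adjusted p = 0.000467), and 3.13% of genes were higher past the threshold. For Dnajb4 the differences were 0.02, 1.12, 1.76, 1.71, 0.85, 1.29 and 1.69 at the same times. Its mean was 1.21 ± 0.21 (2.31-fold, limma adjusted p = 0.0125, higher in 7 of 7 pairs). At 0.5 h the genotypes were within 0.02 of each other, as means of probes that differed in direction. For Dnajb5 they were 0.28, -0.10, 0.39, 1.07, 0.22, 0.59 and 0.53, with a mean of 0.43 ± 0.14 that did not pass (limma adjusted p = 0.123).

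The probes behind each gene were then examined one by one, a step added after the data were seen. Dnajb1 had 4 probes listed, Dnajb4 had 4 and Dnajb5 had 1, of which 3, 3 and 1 had enough values to be tested. Probe numbers are those of the value table. The 3 tested Dnajb1 probes gave late wild-type rises of 2.21 ± 0.36 (probe 475), 2.29 ± 0.36 (probe 10862) and 1.96 ± 0.24 (probe 32485), each past the threshold when used alone (limma adjusted p = 0.00309, 0.00309 and 0.00184). Their values lay further apart at 0.5 h, which is a single wild-type array, and in late null cells. Differences between probes were not tested. At 0.5 h in wild-type cells, probe 475 stood 0.44, probe 32485 0.97 and probe 10862 2.18 above the 0 h mean. In late null cells the same probes gave -0.55 ± 0.36, -0.13 ± 0.24 and 0.69 ± 0.32, none past the threshold (adjusted p = 0.373, 0.79 and 0.186). The excess of the late wild-type over the late null response was 2.76 ± 0.51 on probe 475 and 2.10 ± 0.34 on probe 32485, both past the threshold (limma adjusted p = 0.0492 and 0.0386), and 1.60 ± 0.48 on probe 10862 (0.385). At matched heated times all 3 probes were higher in wild-type cells, by 2.39 ± 0.34, 1.94 ± 0.20 and 2.39 ± 0.16 in that order. Probe 10862 had no value on 1 of the 3 wild-type 0 h arrays.

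The 3 tested Dnajb4 probes did not all separate the genotypes. Probes 17843 and 22619 gave late wild-type rises of 1.47 ± 0.33 and 1.25 ± 0.34 (limma adjusted p = 0.0135 and 0.0366) beside null differences of 0.26 ± 0.33 and 0.00 ± 0.34. The late wild-type response exceeded the null one by 1.22 ± 0.47 and 1.25 ± 0.48 on these probes, neither past the threshold (limma adjusted p = 0.49 and 0.496). Probe 16708 gave 0.74 ± 0.24 in late wild-type cells (adjusted p = 0.075) and 0.81 ± 0.26 in late null cells (adjusted p = 0.0585). In the early window it stood at 1.23 ± 0.26 in each genotype (adjusted p = 0.114 in wild-type and 0.277 in null cells). At matched heated times probes 17843 and 22619 were higher in wild-type cells by 1.74 ± 0.26 and 1.63 ± 0.25 (limma adjusted p = 0.00654 and 0.00706), and probe 16708 by 0.18 ± 0.16 (adjusted p = 0.569). These values include any difference at 0 h. There, null minus wild-type was -0.82 ± 0.35 on probe 17843 and -0.55 ± 0.37 on probe 22619 (limma adjusted p = 0.19 and 0.434). The early null values of Dnajb4 given above rest mainly on probe 16708, since the early null differences of the other probes were 0.30 ± 0.35 and -0.08 ± 0.37. Probe 16708 had no value on the null 8 h array, where the Dnajb4 value of -0.64 rests on the other 2 probes. At 0.5 h probe 16708 stood at 0.71 in wild-type and 1.14 in null cells, relative to the wild-type 0 h mean. Probes 17843 and 22619 stood at -0.23 and -0.39 in wild-type cells and at -0.51 and -0.60 in null cells. The near-equal Dnajb4 values at 0.5 h are thus means of probes that differ in direction.

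**Figure D3:**
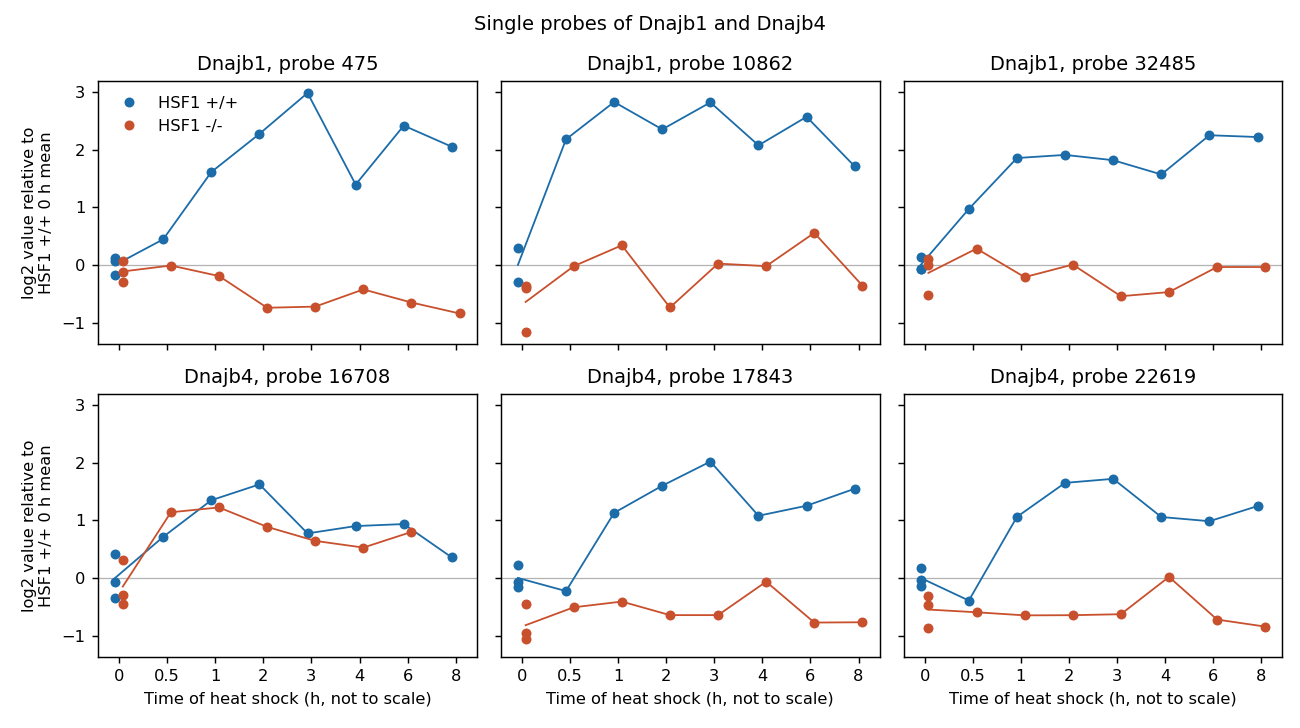
Single probes of Dnajb1 (upper row) and Dnajb4 (lower row), as log2 value relative to the wild-type 0 h mean of the probe against time of heat shock (h, not to scale), 1 point per array, wild-type in blue and HSF1-null in red. The genotypes separate on all 3 Dnajb1 probes and on Dnajb4 probes 17843 and 22619, while the curves of probe 16708 run together, with mean early differences to 0 h of 1.23 in each genotype. On Dnajb4 probes 17843 and 22619 the null mean is lower at 0 h too.

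The listed probes without enough values were not tested. Dnajb1 probe 20597 had 15 values and none on the wild-type 0 h arrays. Its centred log ratios to the pool ranged from -1.32 to -0.26 on the null 0 h arrays, from -1.59 to -0.34 on 2 early and from -1.77 to 0.52 on 3 late wild-type arrays, so the wild-type rise seen on the other probes cannot be read from it. On heated null arrays it ranged from -1.99 to -0.13 in the early and from -0.67 to 0.54 in the late window. These ranges overlap those of heated wild-type cells, unlike on the tested probes, and the late null mean lay 0.81 above the null 0 h mean. Dnajb4 probe 4079 had 5 values, all in wild-type cells. Relative to its 0 h mean it stood at -0.13 at 0.5 h and at -0.30 at 1 h, within the range of its 0 h arrays (-0.40 to 0.54), whereas the 3 tested probes stood at 1.06 to 1.35 at 1 h.

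Other genes of the HSP70 system were read beside the DNAJB genes from lists of its chaperones and cofactors. Of 12 measured HSP70 and HSP110 chaperones, 6 rose and 0 fell in late wild-type cells, beside 3.6% and 3.67% of all genes, and their median was 0.59 against -0.02 over all genes. Hspa1a rose by 5.83 ± 0.75 and its near-identical neighbour in sequence, Hspa1b, by 5.28 ± 0.74 (limma adjusted p = 0.00184 and 0.00233), each from 1 probe that can bind the other's transcript. Hsph1, an HSP110 that exchanges the nucleotide of HSP70, rose by 2.32 ± 0.37, Hspa4l, another HSP110, by 1.85 ± 0.48 and Hspa8, the constitutive HSP70, by 1.00 ± 0.20 (limma adjusted p = 0.00269, 0.0292 and 0.00792). The remaining gene that rose was Hspa2, by 1.68 ± 0.33 (limma adjusted p = 0.00761), named after its value was seen. Its late null difference was -0.56 ± 0.33. In late null cells 0 of the 12 rose and 2 fell, beside 3.86% and 6.8% of all genes, with a median of -0.35 against -0.02 over all genes. Those that fell were Hspa5, the HSP70 of the endoplasmic reticulum (-0.90 ± 0.19), and Hspa13 (-0.63 ± 0.15). In unheated null cells the mitochondrial HSP70 gene Hspa9 was lower by -1.09 ± 0.32 (limma adjusted p = 0.0476).

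Of 34 other measured J-domain proteins, 1 rose and 0 fell in late wild-type cells, beside 3.6% and 3.67% of all genes, with a median of 0.05 against -0.02 over all genes. The member that rose was Dnaja1, a farnesylated cytosolic partner of HSP70 (1.05 ± 0.21, limma adjusted p = 0.00887), whose late null difference was -0.02 ± 0.21. In late null cells 2 of the 34 fell, the splicing-associated Dnajc8 (-0.92 ± 0.15) and Dnajc10, a disulfide reductase of the endoplasmic reticulum (-0.76 ± 0.19), where 6.8% of all genes fell. In unheated null cells Dnajc19, of the mitochondrial import motor, was lower (-0.67 ± 0.19, limma adjusted p = 0.0362). Neither the other J-domain proteins nor the HSP70 list had a member past the threshold in the early wild-type window. Only 4 of all genes tested passed there in either direction, so this is no evidence of an absent early response. Hspa1a stood at 3.64 ± 0.80 and Hspa1b at 3.23 ± 0.78 (limma adjusted p = 0.123 and 0.188). Both early differences were larger than that of Dnajb1 (1.78 ± 0.26), with larger SEs. Of the 12 HSP70 and HSP110 genes, 8 had early wild-type differences above 0, with a median of 0.49.

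Nucleotide exchange factors, which release ADP from HSP70, and connector proteins such as Stip1, which links HSP70 to HSP90, gave 0 of 13 past the threshold in late wild-type cells (limma, median 0.13), beside 3.6% of all genes higher and 3.67% lower. In late null cells 1 of 13 fell, beside 6.8% of all genes. It was the mitochondrial exchange factor Grpel2 (-0.49 ± 0.12, limma adjusted p = 0.013). At matched heated times 6 of 12 HSP70 and HSP110 genes, 2 of 34 other J-domain genes and 2 of 13 exchange factors and connectors were higher in wild-type cells, beside 3.13% of all genes. The smaller counts were Dnaja1 (1.25 ± 0.15) and Sec63 (0.76 ± 0.15), which serves protein import into the endoplasmic reticulum, and Stip1 (1.01 ± 0.20) and Bag2 (0.73 ± 0.16). Sec63, Stip1 and Bag2 were named after their values were seen.

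**Figure D4:**
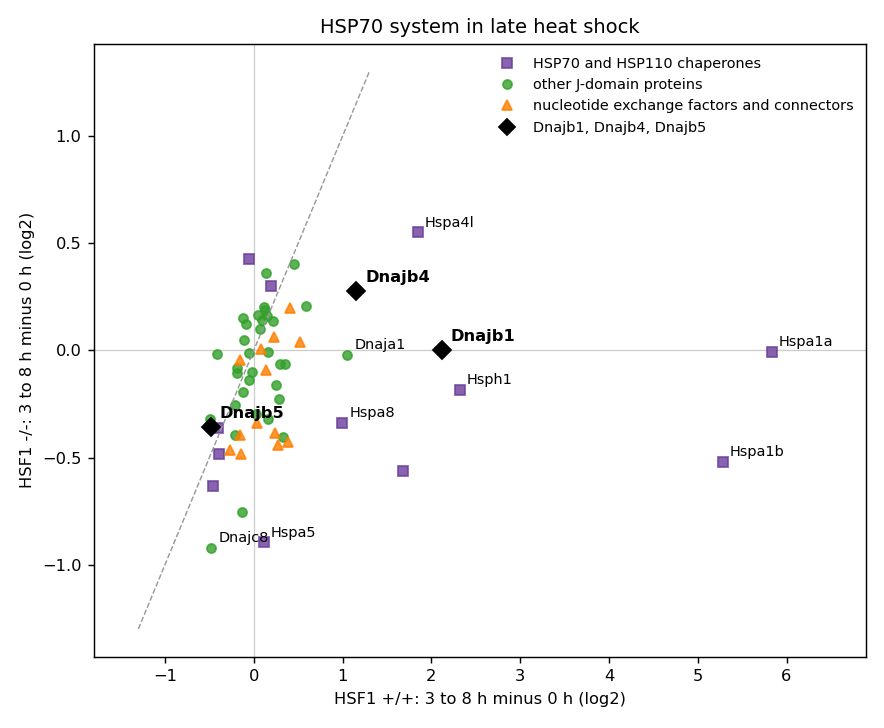
Late minus 0 h difference in wild-type cells (log2, x axis) against the same difference in HSF1-null cells (log2, y axis) for measured genes of the HSP70 system, 1 point per gene, with black diamonds for the DNAJB genes and a dashed line of equal differences. Dnajb1 (2.11 and 0.00) and Dnajb4 (1.16 and 0.28) lie right of the line, with Hspa1a, Hsph1, Hspa8 and Dnaja1, and Dnajb5 (-0.49 and -0.36) lies near it.

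The genes whose pattern over the 20 arrays was most like that of each DNAJB gene were found by Pearson's r among 9459 genes with a value on every array. All points share the reference pool, and the arrays fall into a heated wild-type set and the rest, so r is a description only. For Dnajb1 these were Hspa1a (0.956), Hsph1 (0.929), Dnajb4 (0.921), the stress-inducible HSP90 gene Hsp90aa1 (0.921) and Hspa8 (0.917). Within the 10 wild-type arrays their r with Dnajb1 was 0.845 to 0.949, and within the 10 null arrays -0.051 to 0.361. For Dnajb4 they were Dnaja1 (0.928), Hsph1 (0.924), Hspa1a (0.923), Dnajb1 (0.921) and Hsp90aa1 (0.911). Their r with Dnajb4 was 0.837 to 0.951 within the wild-type arrays. Within the null arrays it was 0.0645 to 0.427 for the first 4 of these and 0.751 for Hsp90aa1.

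Dnajb5, read from 1 probe, had other neighbours. Its closest genes were Zbtb17, which encodes a zinc finger partner of MYC (0.923), Sh3bgrl (0.911), Eif1ax, a translation initiation factor (0.911), Ssr3, a subunit of the translocon-associated complex (0.905), and Ywhaq, a 14-3-3 protein (0.897). These 5 had r with Dnajb5 of 0.785 to 0.90 within the wild-type arrays and of 0.795 to 0.949 within the null arrays. Dnajb5 correlated with Dnajb1 at 0.365 and with Dnajb4 at 0.426 over the 20 arrays, at -0.38 and -0.284 within the wild-type arrays, and at 0.321 and 0.486 within the null arrays.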

How the data were processed

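The deposited value table holds 1 log ratio per probe and array, treated as log2. Per the labels, Cy5 held the sample and Cy3 the pool, so the ratio was read as sample over pool, which the table does not state. Its base is not stated either. The largest absolute value, 10.2, exceeds 4.82, the most a log10 ratio of 16-bit signals can reach, but natural logarithms cannot be told apart from log2, and folds would then be too small. Background correction, spot filters and normalization by the authors are not given in the sources used here, nor is a cause for the 3.28% of missing values. Array medians were -0.53 to -0.18.

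The median of every array was set to 0. A probe needed 2 or more values in every one of 6 groups (40453 of 42624 passed), and those listing 1 gene (20881) were averaged per gene, each relative to its own mean. limma 3.58.1 in R 4.3.3 was fitted to all 20 arrays (lmFit, eBayes) with 9 contrasts, plus a fit of the 7 time-matched differences. All p-values are two-sided and adjusted by Benjamini-Hochberg over 10625 genes, at a threshold of 0.05. Errors are SEs of the moderated fit. The scripts were tested on simulated data. Members, gene lists, contrasts and motifs were chosen with earlier results of these data known. Other genes were named as the largest past the threshold in each list (up to 4 in late wild-type cells, up to 2 in other comparisons), as the 5 most alike by Pearson's r, or, with Hspa1a, Hspa1b and Hsf1, as checks. Promoter windows came from RefSeq by gene symbol, for 3 of 3 members. Alternatives covered centring, normalization, array width, probes, missing values, pairing and left-out arrays.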

Additional observations from a re-analysis of the deposited data

Results flagged for a closer look

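The following 2 results met the rules for a closer look, which were a value far from the rest of its group and a response to heat that differed between the genotypes by a test of that difference. Among the 4 late wild-type arrays, Dnajb4 at 3 h (1.50) stood apart from the others (1.01 to 1.06). Its gap took up 0.908 of the range, beyond the limit for 4 values. The arrays are different times, and chance alone marks about 1 in 20 such groups. The late response of Dnajb1 differed between the genotypes by a log2 of 2.11.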

How the results depend on the processing

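The late wild-type rise of Dnajb1 passed in all 33 alternatives run, with values of 1.82 to 2.29. Its time-matched difference passed in all 19, at 1.75 to 2.43. The early wild-type call of Dnajb1 was lost with only the compared arrays in the fit (1.78, adjusted p = 0.743), with probe 475 alone (1.44), with probes that had all 20 values (1.51) and with scaled array width (1.67), and ran from 1.45 to 2.10 with single arrays left out. Without wild-type 0 h replicate 1 or 2, probe 10862 had too few values, so fewer probes entered. The late response difference of Dnajb1 was lost without centring (2.10), without a filter on missing values (1.62), with probe 10862 alone (1.60) and without the null 6 and 8 h arrays (2.18). It ran from 1.98 to 2.43 with single arrays left out, and was lost without null 0 h replicate 1, 2 or 3, wild-type 0 h replicate 3, or the null 1, 3, 4, 6 or 8 h or wild-type 1, 3 or 6 h array (adjusted p up to 0.119). The early response difference of Dnajb1 passed without both 0.5 h arrays (2.06). The sign of its late null difference turned in 12 of 33 alternatives, none past the threshold.

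Dnajb4 passed in the early wild-type window without both 0.5 h arrays (1.40), with a range of 0.61 to 1.40 over left-out arrays. Its late wild-type rise was lost with probe 16708 alone (0.74) and ran from 1.04 to 1.20 over left-out arrays. The time-matched call was lost with that probe alone (0.18) and without the null 6 and 8 h arrays (1.09). The 0 h difference of Dnajb5 was lost with 1 probe per gene (-0.73), without centring (-0.62), without the missing-value filter (-0.73), with only the compared arrays (-0.73), under quantile normalization (-0.58), scaled width (-0.58), without both 0.5 h arrays (-0.73) and without the null 6 and 8 h arrays (-0.73). It ran from -0.83 to -0.59 over left-out arrays. Its late minus early fall in null cells was lost without centring (-0.61), with only the compared arrays (-0.76), without both 0.5 h arrays (-0.83) and without the null 6 and 8 h arrays (-0.63), with -0.87 to -0.56 over left-out arrays. The late wild-type Dnajb5 difference ran from -0.66 to -0.35 over left-out arrays. Some of these alternatives had fewer arrays or probes in the fit. The cause of the changed calls was not tested.

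The 0 h replicate number and the time entered as a random replicate block (correlation 0.013) changed no call, with the late response difference of Dnajb1 at 2.11 (adjusted p = 0.0376). Same-numbered 0 h arrays deviated together with r of -0.02 to 0.00, and heated arrays of the same time with r of -0.02 to 0.06. So few arrays per group cannot tell whether the paired arrays share more than a number or a time. In the unpaired fit of the time-matched comparison, with no replicate block, Dnajb1 stood at 2.24, Dnajb4 at 1.21 and Dnajb5 at 0.43. Counts of genes past the threshold ranged over the alternatives from 109 to 770 at 0 h (705 in the reported fit), 0 to 18 in early (4) and 164 to 887 in late (772) wild-type cells, 0 to 6 in early (0) and 220 to 1539 in late (1133) null cells. They ranged from 0 to 175 for late minus early in wild-type (2) and 0 to 759 in null cells (528), 0 to 5 (0) and 0 to 18 (10) for the early and late response differences, and 134 to 1090 at matched times (590). The number of arrays limits all of these.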
